A study of Mus musculus with 9 samples.

Results

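Lysosomes are the acidic compartments in which a macrophage digests what it has taken up. The 36 genes described here encode lysosomal proteins and a regulator of lysosomal genes, measured in mouse bone marrow-derived macrophages (BMDMs). They were chosen by name, from a list of cathepsins, glycosidases, sulfatases, lysosomal membrane proteins and Tfeb, and each matched 1 of the 55655 rows of the expression tables. By role they are 7 cysteine proteases, 3 other proteases, 9 glycosidases, 5 sulfatases, 7 proteins of lipid breakdown or lipid export, 4 membrane proteins and 1 transcription factor. All 36 passed both filters on low values, for which 3 or more libraries had to reach an FPKM of 1. The filters kept 12238 rows over the 6 M1 and M1 + PBM libraries and 13915 rows over all 9.

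RNA-seq was carried out on 9 libraries in 3 groups of 3. Bone marrow from the femur and tibia of wild-type C57BL/6 mice aged 6 to 8 weeks was cultured for 7 days with macrophage colony-stimulating factor (M-CSF, 10 ng/mL) to give resting M0 macrophages. M1 macrophages are such cells polarized with lipopolysaccharide (LPS, a bacterial cell wall component) and interferon-γ (IFN-γ) for 12 hours. The M1 + PBM group received these agents together with photobiomodulation (PBM), irradiation with near-infrared laser light. All 3 groups were therefore grown with M-CSF. In these 9 libraries the effect of light was measured only in cells that also received LPS and IFN-γ. The paper states, without showing the data, that RNA-seq of PBM in resting and M2 (alternatively activated) macrophages found no significant differences. The paper describes the experiment as independently repeated 3 times, but the labels do not say whether the 3 libraries of a group are these repeats. Nor do they say whether the libraries came from separate mice or cultures. The p-values below therefore measure only the spread between these libraries, which may be technical.

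The 6 macrophage markers examined (Adgre1, Itgam, Csf1r, Cd14, Mertk and Fcgr1) all had an FPKM of at least 1 in each of the 9 libraries, with summed values of 827 to 912 in M0, 1553 to 1665 in M1 and 1571 to 1906 in M1 + PBM. FPKM counts fragments per length of transcript and per depth of the library, so that levels of different genes can be set side by side. Depth estimated from the steps between low values was 30880000 to 42030000 fragments, and the member value with the fewest fragments behind it, for Tfeb, rested on 147.1. M0 replicate 3 stood apart from the other M0 libraries. Its 8 M1 response markers summed to 74.6 FPKM, against 12.3 and 12.2 in M0 replicates 1 and 2 and 844 to 1833 in the 6 polarized libraries. Its 8 stromal markers summed to 231 FPKM, of which Col1a1 made up 123, against 11.2 and 8.43 in the other M0 libraries and 7.48 to 31.4 in the polarized ones. M1 replicate 2 held the 8 hepatocyte markers at a sum of 18.4 FPKM, against 0.756 to 3.61 in the other 8 libraries. Ly6g, the marker of neutrophils, was listed at 0 in every library, and the 8 neutrophil markers summed to 3.11 to 28.7 FPKM. The dendritic cell, lymphoid and erythroid lists each summed to at most 1.23. The part of these differences between libraries in the values of the lysosomal genes was not tested. Values without M0 replicate 3 are given beside several of the genes below. In bulk RNA, fewer cells of a type and less RNA per cell cannot be told apart.

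Most lysosomal enzymes are made in the endoplasmic reticulum, receive a mannose 6-phosphate tag in the Golgi and are carried by receptors to the lysosome, where low pH activates them. Cathepsins cut proteins, glycosidases and sulfatases take apart glycans and glycosaminoglycans, and acid lipases and their helpers break down membrane lipids and release cholesterol. Inherited loss of single enzymes of this set causes lysosomal storage diseases, in which undigested material accumulates, often in macrophages. The transcription factor TFEB is held in the cytosol by phosphorylation when nutrients are plentiful. When it enters the nucleus, it binds a short palindromic element in the promoters of many lysosomal genes.

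The core of that element is the palindrome TCACGTGA, which contains the shorter palindrome CACGTG. Promoter windows from RefSeq (GRCm38.p6, 250 bases before to 50 after the start of the gene) were found for 31 of the 36 genes. Asah1, Npc1, Ctsb, Galns and Ctsh had no window here. Because both motifs are palindromes, a match reads the same on both strands. CACGTG occurred in the windows of 11 of the 31 members (35.5%), while 8.09% of the 27025 genes in the table had it. TCACGTGA occurred in 4 of the 31 (12.9%), against 1.12% of all genes. These 4 windows are shown because they hold the longer motif, which is set in capitals. Each is written 5′ to 3′ on the strand of its gene.
Ctsa, chr2:164833523-164833822, plus strand: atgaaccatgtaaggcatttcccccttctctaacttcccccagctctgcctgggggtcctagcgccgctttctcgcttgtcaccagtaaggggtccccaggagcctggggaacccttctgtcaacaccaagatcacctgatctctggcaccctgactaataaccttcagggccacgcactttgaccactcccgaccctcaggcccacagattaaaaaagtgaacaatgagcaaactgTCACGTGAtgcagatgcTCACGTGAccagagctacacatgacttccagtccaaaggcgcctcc
Ctsd, chr7:142387778-142388077, minus strand: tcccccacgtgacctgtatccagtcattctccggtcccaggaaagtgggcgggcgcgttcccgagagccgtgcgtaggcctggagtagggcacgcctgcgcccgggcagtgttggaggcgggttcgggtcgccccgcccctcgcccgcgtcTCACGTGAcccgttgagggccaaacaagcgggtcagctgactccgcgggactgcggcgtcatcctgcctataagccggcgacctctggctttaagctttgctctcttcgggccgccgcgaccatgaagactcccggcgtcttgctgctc
Mcoln1, chr8:3500269-3500568, plus strand: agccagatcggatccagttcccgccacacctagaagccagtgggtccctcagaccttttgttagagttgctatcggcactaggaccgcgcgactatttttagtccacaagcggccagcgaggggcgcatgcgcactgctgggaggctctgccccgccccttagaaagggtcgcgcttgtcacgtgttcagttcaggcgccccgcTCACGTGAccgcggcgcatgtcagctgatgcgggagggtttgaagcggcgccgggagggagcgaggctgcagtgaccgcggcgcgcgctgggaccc
Gla, chrX:134600956-134601255, minus strand: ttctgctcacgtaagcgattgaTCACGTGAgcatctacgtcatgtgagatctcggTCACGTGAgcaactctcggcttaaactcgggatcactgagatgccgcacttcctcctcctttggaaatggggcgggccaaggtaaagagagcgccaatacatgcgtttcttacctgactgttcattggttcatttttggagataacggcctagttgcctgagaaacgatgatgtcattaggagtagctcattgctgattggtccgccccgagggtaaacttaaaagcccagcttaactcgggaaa
Ctsa and Gla each held the longer motif at 2 places, and Ctsd and Mcoln1 at 1. Counted from the start of the gene, the motif began at -13 and 4 in Ctsa, at -99 in Ctsd, at -46 in Mcoln1, and at -228 and -195 in Gla. The shorter motif alone was found in Lamp1 (4 copies), Glb1, Gaa, Sgsh, Lgmn, Ctsl and Arsa. Of the 4 genes furthest below M0 after the rescaling described below, Sgsh thus held the shorter motif, and Lipa, Tfeb and Arsb held neither. A match is a run of letters, not a measured binding site. The 11 genes with CACGTG had a median M1 minus M0 difference of -0.54 on the log2(FPKM + 1) scale, and the 20 without it -0.73. For M1 + PBM against M1 the medians were 0.14 and 0.19.

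Together the 36 genes made up 2.44% to 4.09% of all FPKM in the M0 libraries, 1.71% to 2.26% in M1 and 2.03% to 2.37% in M1 + PBM. A few proteins accounted for most of this. Ctsd, Psap, Ctsb and Ctsz, which encode the aspartyl protease cathepsin D, the saposin precursor and the cysteine proteases cathepsins B and Z, held 71.0% to 80.6% of the members' FPKM in every library. The median member stood at 30.7 to 40.3 FPKM in M0, 24.7 to 30.7 in M1 and 27.2 to 39.2 in M1 + PBM. Within the M0 group, replicate 2 was the highest library for 24 of the 36 genes and replicate 3 the lowest for 23. Within M1, replicate 2 was the highest for 23 and replicate 3 the lowest for 26. These orders were shared by much of the set.

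**Figure D1:**
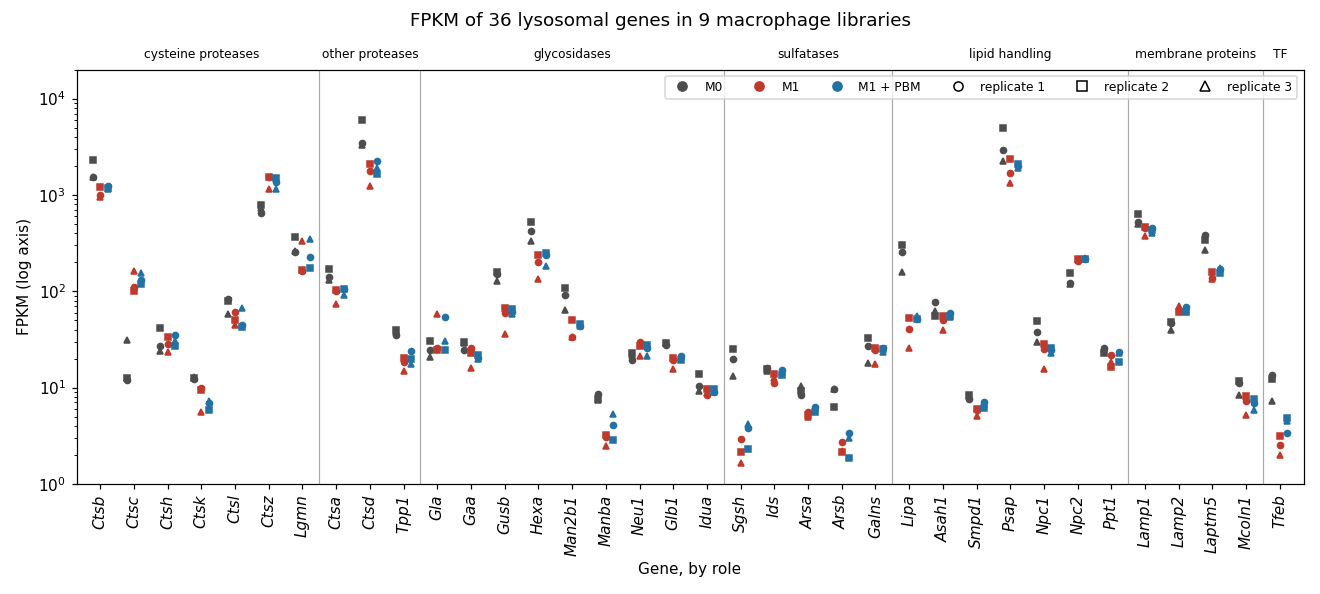
Each point is the FPKM of 1 gene in 1 library on a log axis, with genes ordered by role and coloured by group (grey M0, red M1, blue M1 + PBM; circle, square and triangle are replicates 1, 2 and 3). Levels run from 1.66 FPKM for Sgsh in M1 replicate 3 to 5982 for Ctsd in M0 replicate 2, and the red and blue points lie close together for most genes.

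The first comparison asked how polarization with LPS and IFN-γ changed the set. M1 and M0 stand in separate deposited tables, so the differences are given without a test, as M1 minus M0 of the mean log2(FPKM + 1). The labels do not say when the M0 cells were collected. The table a library stands in, any difference in culture time and polarization therefore cannot be told apart. Of the 36 genes, 30 were lower in M1 than in M0 and 6 higher (Ctsc, Ctsz, Npc2, Lamp2, Gla and Neu1), with a median of -0.56. Over all 13915 rows the median was -0.34, so most rows were lower in M1 too, though their exact share was not counted. When the libraries were rescaled by the median of their ratios to a common reference, the median of all rows became 0.04 and that of the members -0.10, with 19 of 36 below 0 and 17 above. The direction of a gene with a small difference therefore depended on the scaling, and every difference of a named gene from M0 is given on both scales.

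Without regard to size, the 3 M1 libraries of 22 members all lay below the 3 M0 libraries as deposited, where 50.6% of all rows did. Those of 4 members all lay above, where 15.6% did. Neither count was made after rescaling. Where libraries are said to lie above or below others or to overlap, FPKM as deposited is meant unless rescaling is named. A gene was counted when its 3 M1 libraries did not overlap with its 3 M0 libraries and its log2 difference was at least 1 in size. As deposited, 11 members were lower by this rule, where 13.7% of all rows were (Ctsd, Tpp1, Gusb, Hexa, Man2b1, Manba, Sgsh, Arsb, Lipa, Laptm5 and Tfeb). Ctsc was higher, where 7.81% of all rows were. After rescaling, Sgsh, Lipa, Tfeb and Arsb were lower (4 of 36, against 6.93% of all rows) and Ctsc, Ctsz, Npc2 and Lamp2 higher (4 of 36, against 11.7%). Lipa, Sgsh, Tfeb, Arsb and Ctsc were counted on both scales. Without M0 replicate 3 the counts as deposited were 12 lower, with Psap added (14.6% of all rows), and 1 higher (8.82%). The count of 1 higher gene became 2, with Ctsz added, when M0 replicate 2 or M1 replicate 3 was left out.

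**Figure D2:**
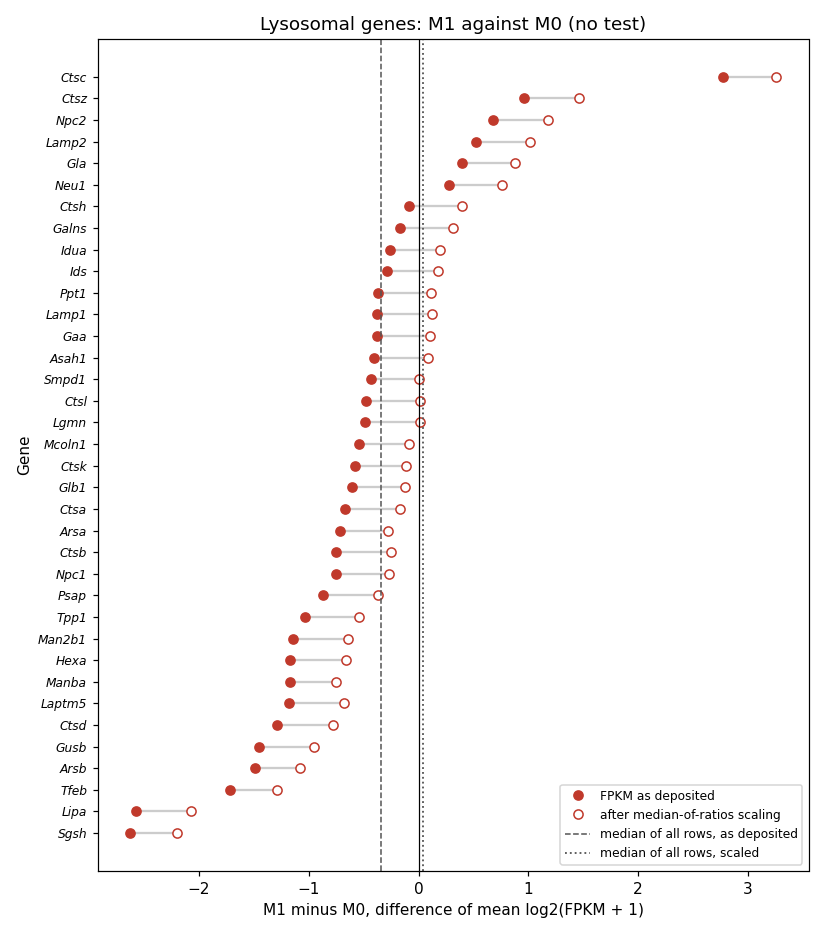
Each row is 1 gene, and the x axis gives M1 minus M0 of the mean log2(FPKM + 1), with filled circles for FPKM as deposited, open circles after median-of-ratios scaling, and broken lines at the medians of all rows (-0.34 dashed, 0.04 dotted). Rescaling moved every gene to the right, and Sgsh, Lipa, Tfeb and Arsb stayed below -1 on both scales while Ctsc stayed above 2.

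The transcription factor of the set, Tfeb, was lower in polarized cells. It stood at 13.4, 12.1 and 7.19 FPKM in M0 replicates 1 to 3, at 2.55, 3.10 and 2.0 in M1 and at 3.38, 4.83 and 4.51 in M1 + PBM. The 3 M0 libraries lay above all 6 polarized ones, and the 3 M1 + PBM libraries lay above the 3 M1 libraries. The means were 10.9 ± 3.27 FPKM in M0, 2.55 ± 0.550 in M1, then 4.24 ± 0.765 with PBM (SD, n = 3). M1 minus M0 was -1.72 as deposited, -1.29 after rescaling and -1.96 without M0 replicate 3.

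Among the cysteine proteases, which use a cysteine in their active site, Ctsc and Ctsz were higher in M1 on both scales. Ctsc encodes cathepsin C, a dipeptidyl peptidase that activates serine proteases of immune cells. It stood at 12.0, 12.6 and 31.5 FPKM in M0, 110.5, 102 and 160.3 in M1 and 131, 119 and 153 in M1 + PBM. Every polarized library was above every M0 library, and M0 replicate 3, the library with raised M1 response markers, was the highest of the M0 group. The difference was 2.78 as deposited, 3.26 after rescaling and 3.21 without M0 replicate 3. Ctsz, whose product trims single residues from the carboxyl end of proteins, stood at 642, 790.1 and 723 FPKM in M0, 1523, 1521 and 1166 in M1 and 1365, 1492 and 1161 in M1 + PBM. The M0 libraries lay below all others, and the difference was 0.96 as deposited and 1.46 after rescaling.

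The other cysteine proteases did not pass the rule in either direction. Ctsb, for the abundant cathepsin B, stood at 1537, 2328 and 1536 FPKM in M0, 990.2, 1197 and 962 in M1 and 1242, 1168 and 1164 in M1 + PBM. Its M0 libraries lay above the polarized ones, with a difference of -0.76 (-0.25 rescaled). Ctsl, for cathepsin L, stood at 83.1, 78.5 and 57.8 FPKM in M0, 60.3, 50.5 and 44.7 in M1 and 45.1, 42.3 and 67.0 in M1 + PBM. Its M0 libraries overlapped with those of both other groups, and the difference was -0.48 (0.015 rescaled). Ctsk, the collagen-cutting cathepsin known best from osteoclasts, stood at 12.2, 12.6 and 12.8 FPKM in M0, 9.98, 9.38 and 5.56 in M1 and 6.98, 5.81 and 7.20 in M1 + PBM. The M0 libraries of Ctsk were close to each other and above the rest, while M1 replicate 3 was the lowest of all 9. The difference was -0.58 (-0.12 rescaled). The 8 osteoclast markers summed to 54.5 to 57.3 FPKM in M0, 28.2 to 50.9 in M1 and 32.7 to 59.4 in M1 + PBM. Of the 8, 5 reached an FPKM of 1 in every M0 library, 3 to 5 in the M1 libraries and 3 to 4 with PBM. Calcr and Oscar were at 0 or below 0.3 in every library. The part of the 8 markers in the values of Ctsk was not tested. Lgmn, for the asparaginyl protease legumain that processes other cathepsins, had an M1 minus M0 difference of -0.49 (0.014 rescaled). Its M1 libraries spread widely, with M1 replicate 3 at 332 FPKM against 161 and 166 in the others. For Ctsh, the aminopeptidase cathepsin H, the difference was -0.088 (0.40 rescaled), which became 0.14 without M0 replicate 2, 0.038 without M1 replicate 3 and -0.24 without M0 replicate 3.

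The 3 other proteases were all lower in M1 as deposited, and Ctsd and Tpp1 passed the rule. Cathepsin D, encoded by Ctsd, is the main aspartyl protease of the lysosome. It was the most abundant member in M0, at 3462, 5982 and 3330.0 FPKM, and stood at 1789, 2109 and 1252 in M1 and 2241, 1665 and 1886 in M1 + PBM. The groups M0 and M1 did not overlap, and the difference was -1.29 as deposited and -0.78 after rescaling, so that on the second scale it was no longer past 1. Tpp1, a tripeptidyl peptidase lost in a form of neuronal ceroid lipofuscinosis, was lower by the same rule, from 37.3 ± 2.25 FPKM in M0 to 17.9 ± 2.75 in M1 (difference -1.03, -0.54 rescaled). Ctsa, the protective protein that stabilizes β-galactosidase and neuraminidase, had means of 147 ± 20.2 and 92.0 ± 16.5 FPKM in M0 and M1 and a difference of -0.67 (-0.17 rescaled). Ctsa shares exons with Pltp, a gene on the opposite strand at 49.8 to 209 FPKM.

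Of the 9 glycosidases, Gusb, Hexa, Man2b1 and Manba passed the rule as lower as deposited, and none of the 9 passed it after rescaling. Gusb, for β-glucuronidase, stood at 151, 158 and 129 FPKM in M0, 60.1, 67.2 and 35.9 in M1 and 60.5, 65.0 and 57.7 in M1 + PBM. Hexa, for the α subunit of the hexosaminidase that degrades ganglioside GM2, stood at 426, 518 and 329.8 FPKM in M0, 201, 236 and 134 in M1 and 237, 248 and 181 in M1 + PBM. In both genes M0 lay above all polarized libraries and M1 replicate 3 was the lowest. The differences were -1.45 and -1.17 as deposited and -0.95 and -0.66 after rescaling. Manba, for β-mannosidase, was the glycosidase of lowest level, at 8.48, 7.52 and 7.35 FPKM in M0, 3.05, 3.20 and 2.49 in M1 and 4.05, 2.88 and 5.36 in M1 + PBM, and its difference was -1.17 (-0.75 rescaled). Man2b1, for α-mannosidase, differed by -1.14 (-0.65 rescaled).

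Gla and Neu1 were the glycosidases with higher means in M1. Gla, for the α-galactosidase lacking in Fabry disease, stood at 24.4, 30.3 and 20.9 FPKM in M0, 25.6, 24.4 and 57.7 in M1 and 53.6, 24.4 and 30.4 in M1 + PBM. Its groups overlapped, and the higher mean rested on M1 replicate 3 and M1 + PBM replicate 1, while the other polarized libraries were near the M0 range. The difference was 0.40 (0.88 rescaled), and as deposited 0.0041 without M1 replicate 3. Neu1, a sialidase, stood at 19.5, 22.6 and 21.6 FPKM in M0, 29.9, 27.1 and 21.5 in M1 and 26.0, 27.6 and 21.5 in M1 + PBM. Replicate 3 of both polarized groups lay within the M0 range, and the difference was 0.28 (0.76 rescaled). Gaa, for the glycogen-degrading enzyme lacking in Pompe disease, stood at 24.7, 29.7 and 28.8 FPKM in M0, 25.7, 22.7 and 15.9 in M1 and 20.3, 21.6 and 19.6 in M1 + PBM. Its M1 replicate 1 lay inside the M0 range, and the difference was -0.38 (0.10 rescaled). Glb1, for β-galactosidase, and Idua, for α-iduronidase, differed by -0.60 and -0.26 as deposited and by -0.12 and 0.19 after rescaling. Glb1 shares exons on the same strand with Tmppe, which stood at 7.46 to 13.5 FPKM, so that its value is uncertain by the reads the pair shares.

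The sulfatases remove sulfate groups from glycosaminoglycans and sulfatides. Sgsh, for the heparan sulfamidase lost in a form of Sanfilippo disease, had the lowest M1 minus M0 difference of the 36 genes on both scales. It stood at 19.6, 25.3 and 13.3 FPKM in M0, 2.92, 2.15 and 1.66 in M1 and 3.84, 2.31 and 4.23 in M1 + PBM. All M0 libraries were far above the rest, and M0 replicate 3 was the lowest of them. The difference was -2.63 as deposited, -2.20 after rescaling and -2.86 without M0 replicate 3. Arsb, for the arylsulfatase that acts on dermatan sulfate, stood at 9.66, 6.29 and 9.67 FPKM in M0, 2.71, 2.16 and 2.17 in M1 and 3.35, 1.85 and 2.97 in M1 + PBM, again with no overlap between M0 and the rest. Its difference was -1.49 (-1.08 rescaled). Arsa, which acts on sulfatide, differed by -0.72 (-0.28 rescaled). For Ids, the iduronate sulfatase, and Galns, the sulfatase of keratan sulfate, the differences were -0.29 and -0.17 as deposited and 0.18 and 0.31 after rescaling. That of Galns was 0.010 without M0 replicate 2, -0.0096 without M1 replicate 3 and -0.41 without M0 replicate 3.

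Among the 7 genes of lipid handling, Lipa was lower and Npc2 higher on both scales. Lipa encodes lysosomal acid lipase, which frees cholesterol and fatty acids from lipoprotein esters. It stood at 255, 306 and 159 FPKM in M0, 40.3, 52.4 and 26.0 in M1 and 51.8, 51.8 and 54.7 in M1 + PBM. The lowest M0 library, replicate 3, was still above every polarized library. The difference was -2.58 as deposited, -2.08 after rescaling and -2.84 without M0 replicate 3. Npc2, a soluble carrier that hands cholesterol to the membrane protein NPC1, stood at 123, 156 and 119 FPKM in M0, 205, 218 and 210.5 in M1 and 217, 217 and 221 in M1 + PBM. The 6 polarized libraries lay close together and above M0, by 0.68 as deposited and 1.18 after rescaling. Npc1 itself differed by -0.76 as deposited and -0.27 after rescaling, below 0 on both scales.

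Psap, whose product is cut into the saposins that present lipids to hydrolases, stood at 2922, 4925 and 2244 FPKM in M0, 1674, 2366 and 1323 in M1 and 1994, 2082 and 1909 in M1 + PBM. M1 replicate 2 lay above M0 replicate 3, so the groups overlapped, and the difference was -0.87 with that M0 library and -1.13 without it (-0.37 rescaled). For Asah1 (acid ceramidase), Smpd1 (acid sphingomyelinase) and Ppt1 (a thioesterase that removes palmitate from proteins), the differences were -0.41, -0.44 and -0.37 as deposited. After rescaling they were 0.087, 0.0016 and 0.11. Ppt1 shares exons with Cap1, a gene on the opposite strand at 144 to 218 FPKM. Whether fragments were counted by strand is not given in the sources used here, and the libraries are described as strand-specific.

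The membrane proteins did not move as 1 group. Lamp1 and Lamp2 encode the heavily glycosylated proteins that line the lysosomal membrane, and LAMP2 also serves in chaperone-mediated autophagy. Lamp1 stood at 529.6, 636 and 505 FPKM in M0, 450.2, 461 and 371 in M1 and 453, 432 and 405 in M1 + PBM. Lamp2 stood at 46.6, 48.1 and 39.5 FPKM in M0, 61.8, 61.0 and 70.7 in M1 and 68.7, 60.8 and 63.7 in M1 + PBM. Lamp1 was lower than M0 in all 6 polarized libraries as deposited (-0.38), and its difference turned to 0.12 after rescaling. Lamp2 was higher in all 6 (0.52, 1.01 rescaled). Mcoln1, the calcium channel TRPML1 through which lysosomal calcium activates TFEB, stood at 11.3, 11.6 and 8.33 FPKM in M0, 7.27, 8.16 and 5.19 in M1 and 6.85, 7.63 and 5.79 in M1 + PBM. Its M1 libraries lay below M0, narrowly for M1 replicate 2 against M0 replicate 3, with a difference of -0.54 (-0.090 rescaled). Laptm5, a lysosomal adaptor of blood cells, was lower by the rule as deposited, with means of 329.5 ± 57.6 FPKM in M0 and 144 ± 14.1 in M1 (difference -1.18, -0.68 rescaled).

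**Figure D3:**
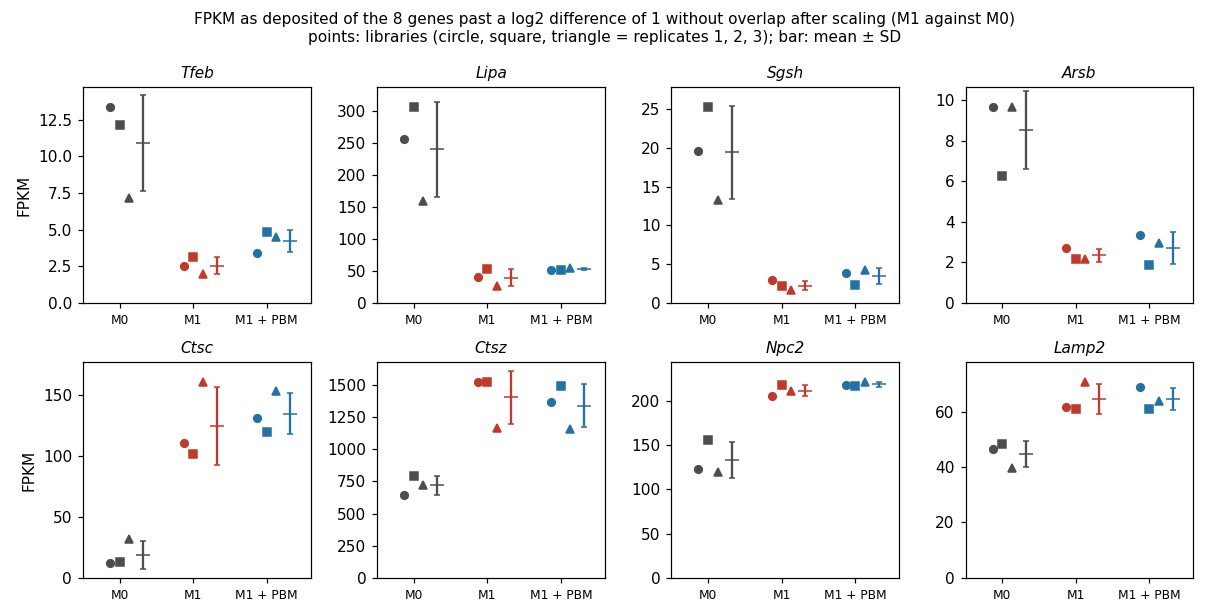
FPKM as deposited on linear axes that start at 0 for the 8 genes that passed the rule after rescaling, with 1 point per library and a bar for the mean ± SD of each group (n = 3). In the upper row all M0 libraries stand above the 6 polarized libraries, and in the lower row below them.

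Irradiated M1 cells were also set against M0, again without a test. This comparison shares its M0 libraries with the one above, so each gives its own values and their likeness is no separate result. All M1 + PBM libraries lay below M0 for 22 members (46.2% of all rows) and above M0 for 4 (15.9%). By the same rule 6 members were lower as deposited (Ctsd, Gusb, Sgsh, Arsb, Lipa and Tfeb), where 10.3% of all rows were, and Ctsc was higher, where 7.13% were. After rescaling the lower genes were Sgsh, Arsb and Lipa (5.81% of all rows) and the higher ones Ctsc, Ctsz and Npc2 (9.94%). Tfeb differed from M0 by -1.15 as deposited and -0.79 after rescaling, so that it passed on the first scale only. For Lipa the values were -2.11 and -1.71, for Sgsh -2.18 and -1.81, and for Ctsc 2.91 and 3.30. The median of the members was -0.52 as deposited and -0.12 after rescaling, beside -0.27 and 0.04 for all rows. Without M0 replicate 3 the lower genes numbered 9 (11.3% of all rows), with Hexa, Man2b1 and Laptm5 added, and the higher genes 1 (7.98%).

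The question of the study was what PBM does to M1 macrophages, and limma was fitted to log2(FPKM + 1) over all 12238 rows to set M1 + PBM against M1. A positive log2 fold change means a higher level with PBM. The study counted a gene at a p up to 0.05 together with a log2 fold change of at least 1 in size, without saying whether the p was adjusted. Taken as an unadjusted p, no lysosomal member met this, while 32 rows (0.261%) did, 0.0245% of all as higher and 0.237% as lower. The paper reported many more genes at these thresholds, and more of them higher than lower. The fit used here therefore did not reproduce its calls. No member had an adjusted p under 0.05 in limma, as 1 row did (0.00817%). By unadjusted p alone, 1 of 36 members stood at 0.05 or less, where 4.44% of all rows did. It was Tfeb, which was higher (2.99% of all rows), and none was lower (1.45%). The log2 fold changes of the members ran from -0.25 for Ctsk to 0.56 for Tfeb. They were above 0 for 29 of 36 genes, where 65.6% of all rows were, and below 0 for 7 (34.4%), with a median of 0.15 beside 0.058 for all rows. After median-of-ratios scaling these medians were 0.083 and -0.0053, with 25 members above 0. Without M1 replicate 3, the lowest M1 library for 26 members, the median was 0.056 beside 0.027, with 23 members above 0. The share of all rows above 0 was not counted after this scaling or without this library.

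Tfeb gave the largest log2 fold change of the set, 0.56 (SE 0.16, n = 3 per group), with an unadjusted p of 0.0122 and an adjusted p of 0.90 in limma. The change from M1 to M1 + PBM was 0.30, 0.51 and 0.88 in replicates 1, 2 and 3, so it was in the same direction in all 3. The lowest M1 + PBM value, 3.38 FPKM, lay above the highest M1 value, 3.10. Such an order gives a two-sided exact permutation p of 0.1, the smallest that 3 against 3 libraries allow. With the replicate number as a block, the SE was 0.14, the unadjusted p in limma 0.0100 and the adjusted p 0.58. Under the block Tfeb was again the 1 member higher at an unadjusted p of at most 0.05 (4.84% of all rows), with 0 lower (3.24%). The estimate ran from 0.45 to 0.69 when single libraries were left out, and its unadjusted p in limma stayed at most 0.0415. Even the highest M1 + PBM library remained below the lowest M0 library, which stood at 7.19 FPKM.

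Lipa and Sgsh followed, both genes that were far lower in M1 than in M0. Lipa had a log2 fold change of 0.46 (SE 0.24) with changes of 0.35, -0.015 and 1.04 in replicates 1 to 3. Sgsh had 0.45 (SE 0.22) with changes of 0.30, 0.070 and 0.97. In both genes replicate 3 carried most of the change, and the M1 + PBM libraries overlapped with the M1 libraries. The unadjusted p-values in limma were 0.101 and 0.0834, and both adjusted p-values were 0.90. Lipa passed an unadjusted p of 0.05 when M1 replicate 2 was left out, and so did Man2b1 and Psap, which brought the count to 4. Sgsh passed when M1 replicate 1 or M1 + PBM replicate 2 was left out, in the second case together with Manba, for counts of 2 and 3. The shares of all rows past the same p in these fits were not counted.

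**Figure D4:**
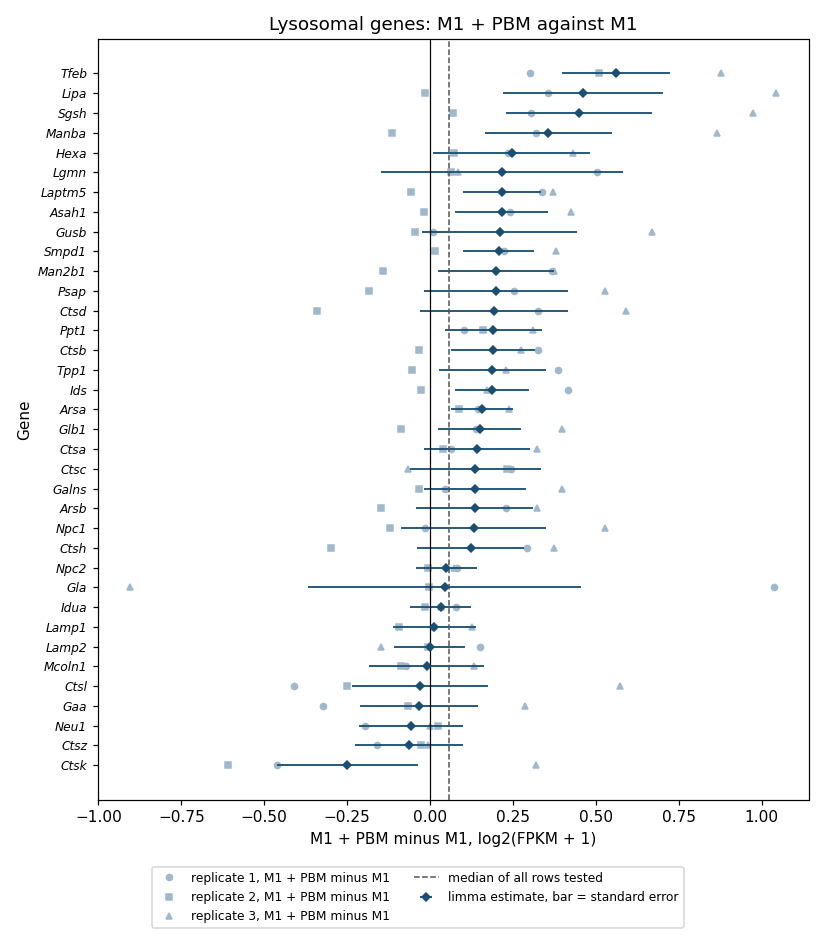
Each row is 1 gene, with the limma estimate of M1 + PBM minus M1 on the log2(FPKM + 1) scale (diamond, bar = standard error, n = 3 per group) and the differences within replicates 1, 2 and 3 (circle, square, triangle). Tfeb lies at the top with all 3 replicates above 0, and replicate 3 (triangles) is often the rightmost point while replicate 2 (squares) is often near or below 0.

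Other members showed smaller estimates. Among the glycosidases, Manba had 0.36 (SE 0.19) and Hexa 0.25 (SE 0.24), and their groups overlapped. Hexa was higher in all 3 replicates, by 0.23, 0.072 and 0.43. With the replicate block its SE was 0.098, its unadjusted p in limma 0.0557 and its adjusted p 0.58. In all, 8 members were higher in each of the 3 same-numbered pairs, where 25.5% of all rows were, and Ctsz was lower in each pair, where 10.1% were. Smpd1 joined Tfeb in having no overlap between the groups (2 members, where 8.51% of all rows were higher without overlap and 2.52% lower). Its M1 + PBM libraries stood at 7.07, 6.12 and 6.82 FPKM and its M1 libraries at 5.91, 6.05 and 5.01, for a log2 fold change of 0.21 (SE 0.11) and an unadjusted p of 0.0952 in limma.

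Below 0 lay 7 members. Ctsk had -0.25 (SE 0.21), with changes of -0.46, -0.61 and 0.32 in replicates 1 to 3, so that replicate 3 went against the other two. It passed an unadjusted p of 0.05 as lower only when M1 replicate 3, its lowest M1 library, was left out, with an estimate of -0.48. The values of Ctsz, Neu1, Gaa and Ctsl were -0.064, -0.058, -0.034 and -0.030, with standard errors of 0.16, 0.16, 0.18 and 0.20. Each of these 4 was smaller than its standard error. Mcoln1 and Lamp2 were at -0.0097 (SE 0.17) and -0.00081 (SE 0.11). Gla had the largest standard error of the set, with an estimate of 0.044 (SE 0.41) and changes of 1.04, -0.0023 and -0.90 in replicates 1 to 3.

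By role, the median log2 fold change with PBM was 0.12 for the cysteine proteases, 0.19 for the other proteases, 0.15 for the glycosidases, 0.16 for the sulfatases, 0.20 for lipid handling and 0.0060 for the membrane proteins. Estimates were above 0 for all of the other proteases (3 of 3), the sulfatases (5 of 5) and lipid handling (7 of 7). They were above 0 for 4 of 7 cysteine proteases, 7 of 9 glycosidases and 2 of 4 membrane proteins, beside 65.6% of all rows. The shared direction in the first 3 of these roles did not hold in every fit. Without M1 replicate 3, Ctsa (-0.017), Ctsd (-0.019), Galns (-0.027) and Npc1 (-0.12) were below 0. After median-of-ratios scaling Npc2 was (-0.031). No gene of these 6 roles passed an unadjusted p of 0.05, and the medians stand beside 0.058 for all rows. For Lipa, Sgsh, Arsb, Ctsd and Gusb, the genes besides Tfeb counted as lower than M0 in both comparisons by the rule as deposited, the estimates were 0.46, 0.45, 0.13, 0.19 and 0.21. The M1 libraries enter both M1 against M0 and M1 + PBM against M1, so these values are listed side by side and not related to each other.

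Around the 36 genes, 6 wider lists of 126 genes describe the rest of the lysosomal system. They cover other hydrolases and their activators, the proton pump (V-ATPase) that acidifies the lysosome, other membrane proteins and transporters, sorting to lysosomes, control of TFEB and its relatives with nutrient sensing, and cystatins and serpins that inhibit cathepsins. Of these genes 117 passed the filter over 9 libraries and 116 that over 6. As deposited, 18 of 117 were lower in M1 than in M0 by the rule and 6 higher (13.7% and 7.81% of all rows), with a median of -0.33. After rescaling, 9 were lower and 16 higher (6.93% and 11.7%), with a median of 0.10. With PBM, 92 of 116 had a log2 fold change above 0 (65.6% of all rows), with a median of 0.084. That median was 0.020 after median-of-ratios scaling, 0.027 without M1 replicate 3, 0.15 without M1 replicate 2, and 0.13 without M1 replicate 1 or M1 + PBM replicate 3. None of the 116 had an adjusted p under 0.05 in limma.

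At an unadjusted p of at most 0.05, 1 wider gene was higher and 0 were lower, below the 2.99% and 1.45% of all rows. It was Slc38a9, an arginine-sensing transporter of the lysosomal membrane, at 0.25 (SE 0.092), with an unadjusted p of 0.0342 in limma. With the replicate block its unadjusted p was 0.0546, and 5 other genes stood at 0.05 or less, all higher (4.84% of all rows). These were Galc, Sorl1, Tpcn1, Pld4 and Zkscan3, with unadjusted p-values under the block of 0.0250, 0.0428, 0.0464, 0.0484 and 0.0485 in limma, and each had an adjusted p of 0.58. Slc38a9, Sorl1 and Zkscan3 are named after their values were seen. Without the block, leaving out M1 replicate 2 gave 11 higher genes and leaving out M1 + PBM replicate 2 gave 7. Leaving out any 1 of the other 4 libraries gave 0 higher genes, with 1 lower gene when that library was M1 replicate 3. The share of all rows past the same p in these fits was not counted.

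**Figure D5:**
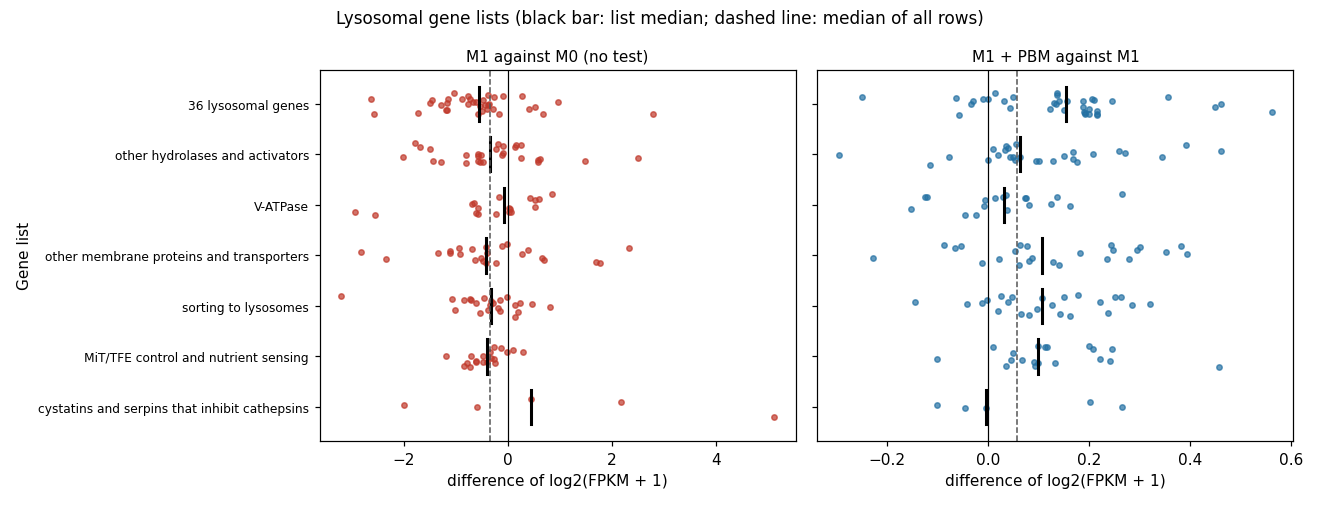
Each point is 1 gene of the named list, placed by its M1 minus M0 difference (left, no test) or its limma log2 fold change with PBM (right), both on the log2(FPKM + 1) scale; black bars are list medians and the dashed line is the median of all rows. The lists overlap widely in both panels, with medians of -0.56 for the 36 genes and -0.072 for the V-ATPase on the left, and of 0.15 and 0.032 on the right.

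Large differences from M0 also stood in these lists. The V-ATPase had 2 genes lower in M1 by the rule among 18 and 0 higher, beside 13.7% and 7.81% of all rows. Atp6v0a1, a membrane subunit, stood at 74.1, 101 and 42.0 FPKM in M0, 8.0, 9.48 and 6.95 in M1 and 8.54, 9.13 and 12.5 in M1 + PBM. Atp6v0d2, a subunit found in osteoclasts and macrophages, stood at 122, 226 and 39.5 FPKM in M0, 20.5, 37.7 and 5.82 in M1 and 17.2, 27.4 and 9.44 in M1 + PBM. M1 minus M0 was -2.93 and -2.54 as deposited and -2.45 and -2.06 after rescaling, while the list median was -0.072 and 0.42. After rescaling, 1 of the 18 was counted as lower and 3 as higher, beside 6.93% and 11.7% of all rows. Without M0 replicate 3 the differences as deposited were -3.27 for Atp6v0a1 and -3.23 for Atp6v0d2. Mcoln3, a channel related to Mcoln1, was at 25.6, 43.1 and 17.9 FPKM in M0 and 4.35, 6.08 and 0.707 in M1. Tpcn1, a cation channel of endosomes and lysosomes, was at 25.9, 17.8 and 14.7 FPKM in M0 and 3.01, 2.81 and 3.0 in M1. Their M1 minus M0 differences were -2.81 and -2.34 (-2.38 and -1.89 rescaled), and with PBM the log2 fold changes were 0.38 (SE 0.59) and 0.39 (SE 0.18).

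Among sorting genes, Sort1 encodes the receptor sortilin, which carries prosaposin and hydrolases. It stood at 26.5, 37.0 and 12.5 FPKM in M0, 1.89, 3.36 and 0.453 in M1 and 2.24, 2.69 and 1.22 in M1 + PBM. M0 replicate 3 was again the lowest of M0 and still above every polarized library, for a difference of -3.20 (-2.80 rescaled). Igf2r, the large mannose 6-phosphate receptor, differed by -1.07 (-0.57 rescaled). Gnptab, an enzyme that builds the mannose 6-phosphate tag, had a PBM log2 fold change of 0.28 (SE 0.13). In the list of TFEB control and nutrient sensing, Lamtor4 and Rragd, parts of the machinery that holds mTORC1 at the lysosome, differed from M0 in M1 by -1.18 and -0.84 (-0.70 and -0.50 rescaled). With PBM, Lamtor4 and Lamtor1 had 0.46 (SE 0.24) and 0.24 (SE 0.12).

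Of the other hydrolases, Galc, for galactosylceramidase, stood at 12.9, 19.2 and 8.55 FPKM in M0, 2.73, 3.62 and 1.41 in M1 and 3.90, 4.26 and 3.21 in M1 + PBM, a difference of -2.0 (-1.58 rescaled). Acp5, the tartrate-resistant acid phosphatase, went the other way, from 7.89, 10.1 and 5.0 FPKM in M0 to 54.1, 108 and 16.6 in M1 (2.49, 2.95 rescaled). Galc and Pld4, a lysosomal exonuclease, had the largest PBM estimates in size of their list, 0.46 (SE 0.24) and 0.39 (SE 0.39), with unadjusted p-values in limma of 0.102 and 0.350, which the replicate block lowered as given above. Atp6v0a1 and Atp6ap1 had those of the V-ATPase, 0.26 (SE 0.17) and 0.16 (SE 0.12), and Igf2r with Gnptab those of the sorting genes, 0.32 and 0.28.

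Inhibitors of cathepsins were mixed, and 5 of 11 passed the filter over 9 libraries. As deposited, 1 of the 5 was higher in M1 than in M0 by the rule and 1 lower (7.81% and 13.7% of all rows). Cst7 and Serpina3g passed the filter only through the polarized libraries, where they were higher. The count of higher genes in this list therefore depends in part on the filter. Cst7, for cystatin F, which restrains cathepsin C and other cysteine cathepsins, stood at 1.27, 0.831 and 1.77 FPKM in M0, 76.9, 102 and 57.4 in M1 and 74.0, 113 and 53.7 in M1 + PBM. It was higher in every polarized library, by 5.11 as deposited and 5.45 after rescaling. Serpina3g, a serpin that inhibits cysteine cathepsins, was at 0.0466, 0.158 and 7.05 FPKM in M0 and 6.66, 8.18 and 11.5 in M1. M0 replicate 3 lay within the M1 range of Serpina3g, so these groups overlapped, with a difference of 2.16 (2.43 rescaled, 3.12 without M0 replicate 3). Serpinb6a and Cst3 were lower in M1 than in M0, by -1.99 and -0.59 (-1.51 and -0.088 rescaled), and Serpinb6a passed the rule. With PBM, Serpinb6a and Cst3 had log2 fold changes of 0.27 (SE 0.18) and 0.20 (SE 0.15).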

How the data were processed

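RNA-seq of 3 M0, 3 M1 and 3 M1 + PBM libraries was analysed. The authors deposited FPKM values in 2 tables of 55655 rows, 1 for M0 and 1 for the other 6 libraries. The paper names Cufflinks methods, and the submitters' processing notes name Bowtie 0.12.2 and mm9 without further detail. Symbols were taken from GENCODE release M21 for 55154 rows, and 320 rows named MSTRG were kept without one. Depth was estimated from the steps between low FPKM values. Since 44.7% to 48.6% of these were whole multiples within 0.05 fragments (10% if evenly spread), no reads were recovered and no count test was run.

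M1 + PBM was compared with M1 with limma 3.58.1 in R 4.3.3 (eBayes with trend) on log2(FPKM + 1), which understates the change of genes with low FPKM, over rows that reached an FPKM of 1 in 3 or more of the 6 libraries. P-values were adjusted by Benjamini and Hochberg over all 12238 rows. M0 stands in a table of its own and entered no test. The test was first run on simulated data with known changes. Median-of-ratios factors were 1.22 to 1.31 in M0 and 0.82 to 0.96 in the other libraries.

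The members, the wider lists and the marker lists were chosen with earlier results of these data known. A further macrophage marker is not reported here. Values in every library were given for Tfeb, Mcoln1 and Lamp1, the 6 members of highest mean FPKM, and the 5 members with the largest difference in each direction for M1 against M0 and for M1 + PBM against M1. In each wider list the 2 genes with the largest difference in size were named for each of these comparisons. Smpd1, Slc38a9, Sorl1 and Zkscan3 were singled out after their values were seen. Deviations from the group mean correlated between same-numbered libraries of M1 and M1 + PBM with r of 0.16 to 0.47 across genes, and between different numbers with r of -0.49 to 0.033. The main fit did not use these pairs, and every SE and p-value comes from it unless the block is named. A fit with the replicate number as a block was run as an alternative. The others were leaving out each library, a log2 difference of 0.5, a pseudocount of 0.1, eBayes without the trend, median-of-ratios scaling, quantile normalization, and the filter dropped or replaced by a mean of 5 FPKM or more. Promoter windows were read from a RefSeq table for GRCm38.p6, which is not the mm9 build of the notes, and served only for sequence motifs. Exons shared with other genes were found in GENCODE M21.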

Additional observations from a re-analysis of the deposited data

How the results depend on the processing

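In M1 + PBM against M1, no member passed an unadjusted p of 0.05 with a log2 fold change of 1, or an adjusted p under 0.05 in any of the alternatives run, the single left-out libraries included. The count of members higher at an unadjusted p of at most 0.05 (1, Tfeb) became 0 with a mean FPKM of at least 5, which removes Tfeb, and ran from 1 to 4 when single libraries were left out. The count of lower members (0) ran from 0 to 1. With the replicate block the count stayed at 1 higher and 0 lower and the median at 0.15, and the block changed no call among the 36 genes. Among the wider lists it moved the count from 1 to 5 higher, with Slc38a9 no longer among them. Median-of-ratios scaling turned the signs of Gla (-0.035), Idua (-0.0405), Npc2 (-0.031) and Lamp1 (-0.067), and quantile normalization those of Idua (-0.0077) and Lamp2 (0.0080). Leaving out single libraries turned the sign of 16 members, whose estimates ran as follows: Ctsh -0.0032 to 0.24, Ctsl -0.23 to 0.094, Ctsz -0.19 to 0.035, Lgmn -0.056 to 0.56, Ctsa -0.017 to 0.22, Ctsd -0.019 to 0.36, Gla -0.27 to 0.44, Gaa -0.23 to 0.10, Gusb -0.059 to 0.38, Neu1 -0.19 to 0.044, Idua -0.0072 to 0.081, Galns -0.027 to 0.23, Npc1 -0.12 to 0.30, Lamp1 -0.086 to 0.071, Lamp2 -0.047 to 0.066 and Mcoln1 -0.17 to 0.11. In M1 against M0, the counts of 1 higher and 11 lower members became 4 and 18 at a log2 difference of 0.5 and 4 and 4 after median-of-ratios scaling, which moved the median from -0.56 to -0.10. Leaving out single libraries gave 1 to 2 higher, 9 to 12 lower and a median of -0.67 to -0.44. In M1 + PBM against M0, 1 higher and 6 lower became 4 and 18 at 0.5 and 3 and 3 after scaling, which moved the median from -0.52 to -0.12. Leaving out single libraries gave 1 higher, 5 to 9 lower and a median of -0.55 to -0.40. The cause of these shifts was not tested. The share of all rows past a log2 difference of 0.5 was not counted, so the counts at 0.5 have no background beside them. Among the left-out libraries, the share of all rows was counted only without M0 replicate 3. In M1 against M0, the small differences of Ctsh (-0.24 to 0.14) and Galns (-0.41 to 0.010) turned sign when single libraries were left out, and in M1 + PBM against M0 they ran from -0.11 to 0.26 and from -0.27 to 0.15. The largest standard error among the members was that of Gla (0.41).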
